A study of Mus musculus with 3 samples.

Results

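The dopamine, adenosine and orphan receptors of striatal spiny neurons were examined gene by gene in single cells of the mouse nucleus accumbens. The members were listed by symbol as Drd1, Drd2, Drd3, Adora2a, Adora1, Gpr6, Gpr52, P2ry1 and Gpr101. Of these 9 genes, 8 were matched among the 28001 features, and Gpr52 was not analysed here. The series has 3 samples of 1 group, all from Thy1::ChR2 mice, which carry the light-gated channel channelrhodopsin-2 under the neuronal Thy1 promoter. Cells came from a coronal dissection of 400 µm after FLiCRE labelling, a calcium and light dependent reporter system, while light was delivered to the nucleus accumbens. The labels give no age and no number of animals, and no unstimulated group was analysed here, so comparisons are between cell classes of the same libraries. Nothing says that the samples came from separate animals, so p-values measure the spread between these libraries.

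Spiny projection neurons are the output cells of the nucleus accumbens and fall into a direct class, marked by Drd1 with the peptides substance P and dynorphin, and an indirect class, marked by Drd2, Adora2a and enkephalin. The D1 receptor raises cyclic AMP through the olfactory-type G protein and adenylyl cyclase, while D2 and D3 receptors lower it through inhibitory G proteins. Adenosine acts in the opposite sense in the indirect class, where the receptor encoded by Adora2a raises cyclic AMP, and the receptor encoded by Adora1 lowers it in many cell types. GPR6 is an orphan receptor with constitutive activity toward cyclic AMP, P2RY1 is a receptor for ADP, and GPR101 is an orphan receptor coupled to cyclic AMP.

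Because the receptors themselves define the textbook classes, neurons were sorted without them. A neuron entered the direct gate with at least 3 UMIs (molecular tags, each standing for 1 captured RNA molecule) of Tac1, Pdyn and Isl1 together and at least 3 times as many as of Penk and Sp9, and the indirect gate by the reverse. Tac1, Pdyn and Penk encode neuropeptide precursors, and Isl1 and Sp9 encode transcription factors of the 2 lineages. The direct gate held 124, 1175 and 161 neurons in libraries 1, 2 and 3, and the indirect gate held 268, 954 and 278. A gate is a range and not a cell type: 271 gated cells lay at exactly 3 UMIs and 256 ungated cells lay at 2. Both gates carried all 8 general spiny markers listed, among them Ppp1r1b, Pde10a, Rgs9, Bcl11b, Foxp1, Meis2 and Rarb, with a summed level of 5522 to 8018 CPM (UMIs scaled to the total of each sum, per 1e6) in the direct and 6669 to 9374 in the indirect gate. Glutamatergic-like neurons had 753 to 1125 CPM of the same list.

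The libraries held 2306, 5783 and 1834 cells after filtering, with 2789355, 14578665 and 6276639 UMIs. Library numbers follow the barcode suffix and are names only. Pairs of libraries shared 13, 7 and 22 cell barcodes (1 with 2, 1 with 3, 2 with 3), of which 11, 6 and 15 were in kept cells. Median depth was 1372.5, 2621 and 3218 UMIs per cell in the direct gate and 1157.5, 2707.5 and 2346.5 in the indirect gate. Summed astrocyte markers ran from 160.5 to 332.7 CPM in the direct gate and from 183.7 to 340.4 CPM in the indirect gate, and summed oligodendrocyte markers from 190.2 to 350.1 and from 317.7 to 388.4. Their part in the results was not tested.

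In GRCm38 with GENCODE M21 annotation, Drd1 is at chr13:54051183-54055705 (minus strand), Drd2 at chr9:49340627-49408177 (plus), Drd3 at chr16:43754026-43822932 (plus) and Adora2a at chr10:75316877-75334784 (plus). Adora1 is at chr1:134199223-134235431 (minus), Gpr6 at chr10:41069977-41072285 (minus), P2ry1 at chr3:61002795-61008982 (plus) and Gpr101 at chrX:57496668-57503757 (minus). The 3′ counts do not separate isoforms of a gene.

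The promoters of Drd1, Gpr101, Gpr6 and P2ry1 from RefSeq (GRCm38.p6) are shown because these 4 genes differed between the gates in the results that follow. Each line gives bases upstream of the RefSeq start, 5′ to 3′ on the gene's strand: Drd1 chr13:54055706-54055908 (minus), Gpr101 chrX:57503758-57504007 (minus), Gpr6 chr10:41072291-41072540 (minus) and P2ry1 chr3:61002535-61002784 (plus). For Drd1 the 47 bases nearest the start lie inside the GENCODE gene and were left out. Capitals mark the cyclic AMP response element (CRE) TGACGTCA, its half-site TGACG and the GC box GGGCGG, read on both strands.
Drd1: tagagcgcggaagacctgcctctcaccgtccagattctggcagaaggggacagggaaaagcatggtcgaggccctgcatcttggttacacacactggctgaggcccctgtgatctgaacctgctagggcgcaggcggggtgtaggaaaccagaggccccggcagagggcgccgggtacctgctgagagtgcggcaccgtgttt
Gpr101: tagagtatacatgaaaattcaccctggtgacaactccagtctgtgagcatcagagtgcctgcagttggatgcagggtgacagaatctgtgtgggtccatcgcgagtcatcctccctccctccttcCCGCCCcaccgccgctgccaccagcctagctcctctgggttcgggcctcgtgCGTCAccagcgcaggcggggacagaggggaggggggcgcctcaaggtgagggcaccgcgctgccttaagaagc
Gpr6: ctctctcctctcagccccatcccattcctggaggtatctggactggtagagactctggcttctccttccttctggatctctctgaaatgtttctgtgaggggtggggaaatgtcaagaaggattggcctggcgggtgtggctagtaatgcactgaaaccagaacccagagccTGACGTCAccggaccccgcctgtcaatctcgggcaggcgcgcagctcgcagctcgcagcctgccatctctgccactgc
P2ry1: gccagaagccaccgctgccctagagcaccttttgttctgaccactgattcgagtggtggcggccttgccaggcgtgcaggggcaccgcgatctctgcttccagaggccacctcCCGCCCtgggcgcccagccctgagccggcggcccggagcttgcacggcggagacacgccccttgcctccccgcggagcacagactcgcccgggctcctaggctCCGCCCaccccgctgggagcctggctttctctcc
The 250 bases before the start of Gpr6 held the full CRE, 78 bases before the start, where it overlaps 2 half-sites on opposite strands. Gpr101 held 1 half-site and 1 GC box, P2ry1 held 2 GC boxes, and the first of 2 listed starts of Drd1, printed here, held none of these motifs. The second start of Drd1, whose window lies inside the gene, held 1 GC box 133 bases before it. Over 32851 mouse promoters of the same length, 1.55% held the CRE, 17.8% the half-site, 32.7% the GC box and 12.4% the TATA box TATAAA, which none of the printed windows held. A match is a description of letters and not of a bound site. Of the 9 listed genes 7 had an entry, and Adora2a and Gpr52 had none.

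Between the gates, the receptors fell into 3 patterns: Drd1 and Gpr101 were higher in direct-gate neurons, Adora2a, Gpr6 and P2ry1 were higher in indirect-gate neurons, and Adora1 did not pass the test. Raw counts were summed per library and gate and compared with edgeR's quasi-likelihood test with the library as block. Of 8786 genes tested, 184 (2.09%) had an adjusted p under 0.05, 1.07% higher and 1.02% lower in the direct gate. Of the 8 receptors 6 had enough counts to be tested, 2 were higher and 3 were lower, and DESeq2 called 4, without Gpr101. The median log2 fold change was 0.01 over all genes. Very small p-values in this fit rest on a spread that most genes share.

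**Figure D1:**
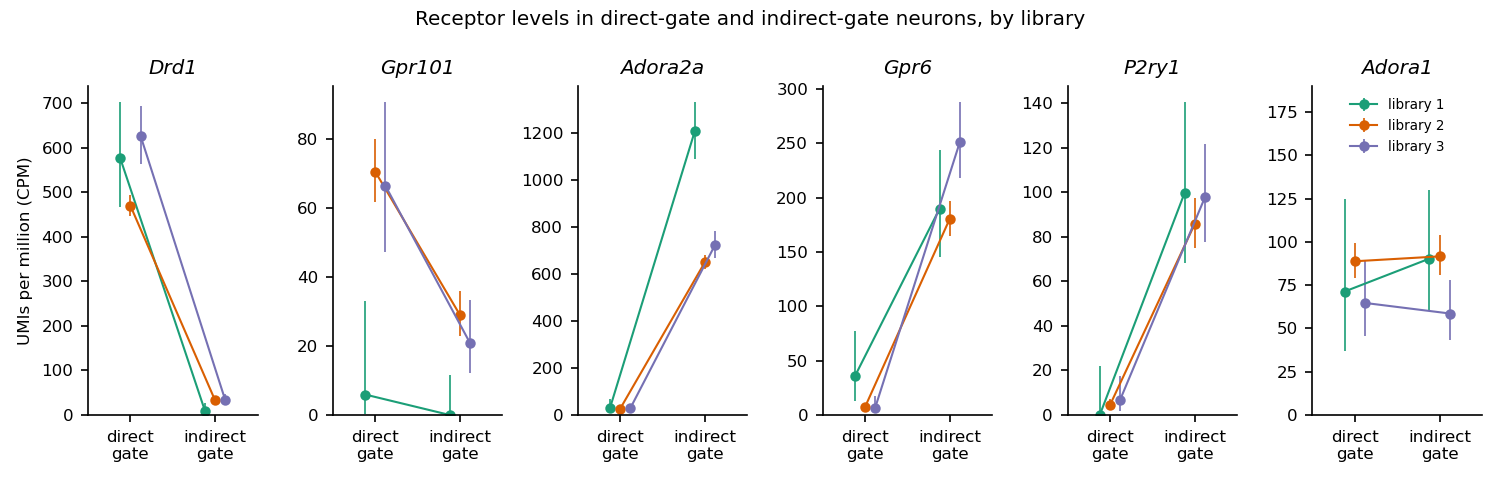
CPM of 6 receptors (vertical axis, linear from 0) in direct-gate and indirect-gate neurons, with 1 point and line per library and exact 95% Poisson intervals, which cover counting error only. Drd1 fell from 470 CPM or more to 33 or less in every library, while Adora2a, Gpr6 and P2ry1 rose from the direct to the indirect gate in every library.

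Drd1, the receptor that starts the cyclic AMP response to dopamine in direct neurons, had 576.5, 469.9 and 626.7 CPM in the direct gate of libraries 1, 2 and 3 and 9.34, 32.6 and 33.0 CPM in the indirect gate. The gates did not overlap, and library 2 was lowest in the direct gate. The log2 fold change was 4.10 (SE 0.14, adjusted p = 4.32e-24, edgeR), higher in 3 of 3 libraries. Oligodendrocyte-like cells, a class that should lack the gene, had 0, 22.2 and 1.44 CPM. The indirect gate was above them in every library, with 33.0 against 1.44 CPM in library 3. In library 2 the exact Poisson interval of oligodendrocyte-like cells (15.1 to 31.4 CPM) overlapped that of the indirect gate (26.2 to 40.1 CPM). Over the 3 libraries 89 of 1500 indirect-gate cells held a Drd1 UMI, against 963 of 1460 in the direct gate.

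Adora2a, the receptor through which adenosine drives the indirect class, had 29.7, 26.5 and 29.0 CPM in the direct gate and 1205.2, 649.3 and 723.0 CPM in the indirect gate. The gates stood far apart, and library 1 was highest in the indirect gate. The log2 fold change was -4.68 (SE 0.13, adjusted p = 9.70e-28, edgeR), lower in 3 of 3 libraries. Oligodendrocyte-like cells had 4.23, 22.2 and 7.94 CPM, under the direct gate in every library. In library 2 their interval (15.1 to 31.4 CPM) overlapped that of the direct gate (21.3 to 32.6 CPM). Single cells reached 14 Adora2a UMIs in the indirect gate and 7 in the direct gate.

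Gpr6, the constitutively active orphan receptor, had 35.7, 7.37 and 6.81 CPM in the direct gate and 190, 180.7 and 251.6 CPM in the indirect gate. Library 1 was highest in the direct gate, with 6 UMIs in 124 cells, and still far under every indirect value. The log2 fold change was -4.47 (SE 0.21, adjusted p = 6.46e-20, edgeR). P2ry1, the ADP receptor, had 0, 4.42 and 6.81 CPM in the direct gate and 99.7, 85.7 and 97.7 CPM in the indirect gate. The indirect values lay close together, and the 0 of library 1 allows up to 17.8 CPM (3 counts, counting error only). The log2 fold change was -4.24 (SE 0.25, adjusted p = 3.95e-17, edgeR). Gpr6 and P2ry1 were both lower in the direct gate in 3 of 3 libraries.

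Gpr101, the orphan receptor on the X chromosome, had 5.94, 70.5 and 66.4 CPM in the direct gate and 0, 28.9 and 20.8 CPM in the indirect gate. Libraries 2 and 3 were higher in the direct gate, while library 1 held 1 UMI in the direct and 0 in the indirect gate, too few for an order. The log2 fold change was 1.37 (SE 0.19, adjusted p = 1.5e-06, edgeR). The call was lost with DESeq2 (log2 fold change 1.5, adjusted p = 0.150), without the library block (1.43, adjusted p = 1.0 in edgeR), without library 3 (1.28, adjusted p = 0.0536 in edgeR) and when cells were gated by Isl1 and Sp9 alone (1.45, adjusted p = 0.557 in edgeR). It had 279 UMIs in the direct and 96 in the indirect gate, and 2 in oligodendrocyte-like cells. Summed markers of Sst-Npy interneurons, the class with the highest mean Gpr101, were at 5.94, 156.9 and 25.5 CPM in the direct gate and 21.8, 140.0 and 48.9 CPM in the indirect gate, and their part in the result was not tested.

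Adora1, the inhibitory adenosine receptor, had 71.3, 88.8 and 64.7 CPM in the direct gate and 90.3, 91.6 and 58.6 CPM in the indirect gate. The gates overlapped, and neither was the higher in all 3 libraries. The log2 fold change was -0.04 (SE 0.14, adjusted p = 0.980, edgeR), with an approximate 95% interval from -0.31 to 0.24 on the log2 scale.

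Drd2 and Drd3 were almost unread in these libraries. Drd2, the receptor by which the indirect class is usually named, had 16 UMIs in all deposited cells, 15 of them in kept cells and each in a different cell. Of these, 1, 8 and 1 lay in the indirect gate and 1, 2 and 0 in the direct gate, which gives 3.11, 2.93 and 1.22 CPM against 5.94, 0.59 and 0 CPM. The gates overlapped at this depth, and no order could be drawn. Drd3, the receptor enriched in ventral striatum, had 2 UMIs in all, 1 in the direct gate of library 2 and 1 in an ungated spiny neuron of library 1. Neither gene entered the fit, and the reason for their low counts was not tested.

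Since a deeper cell shows more genes, each cell was also thinned to 1000 UMIs and the share of cells with a UMI was taken. Drd1 was seen in 38.2%, 37.5% and 46.8% of direct-gate cells and 1.19%, 3.08% and 3.85% of indirect-gate cells, a difference of 38.1 points. Adora2a was seen in 3.08% ± 0.82 of direct-gate and 51.7% ± 5.30 of indirect-gate cells (SD, n = 3 libraries). Gpr6 was seen in 1.36% ± 1.78 and 18.9% ± 2.17, and P2ry1 in 0.55% ± 0.67 and 8.40% ± 1.19. The order of the gates held in every library for these 4 genes. Gpr101 was seen in 4.41% ± 2.86 of direct-gate and 2.25% ± 1.95 of indirect-gate cells, and Adora1 in 7.52% ± 0.69 and 7.66% ± 1.08. In oligodendrocyte-like cells thinned alike, with median depths of 943.5, 2153 and 4121.5 UMIs before thinning, the shares were 0.89% for Drd1, 0.95% for Adora2a, 0.25% for Gpr6, 0.13% for P2ry1 and for Gpr101, and 6.23% for Adora1. With 3 libraries the exact two-sided sign-flip permutation test cannot go below p = 0.25, which Drd1, Adora2a, Gpr6, P2ry1, Gpr101 and Drd2 reached, while Adora1 gave p = 1.0. Drd2 did so on shares of 0%, 0.088% and 0% in the direct gate and 0.595%, 0.220% and 0.385% in the indirect gate. Those shares are too low for an order. Before thinning, Drd1 was in 63.7% ± 16.6 of direct-gate and 4.56% ± 3.48 of indirect-gate cells, and Adora2a in 5.83% ± 1.56 and 73.0% ± 1.20. The unthinned shares were 2.67% and 34.8% for Gpr6, 1.25% and 17.0% for P2ry1, 11.2% and 4.36% for Gpr101, and 18% and 15.6% for Adora1. Thinning left out 85 direct-gate and 162 indirect-gate cells of fewer than 1000 UMIs.

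**Figure D2:**
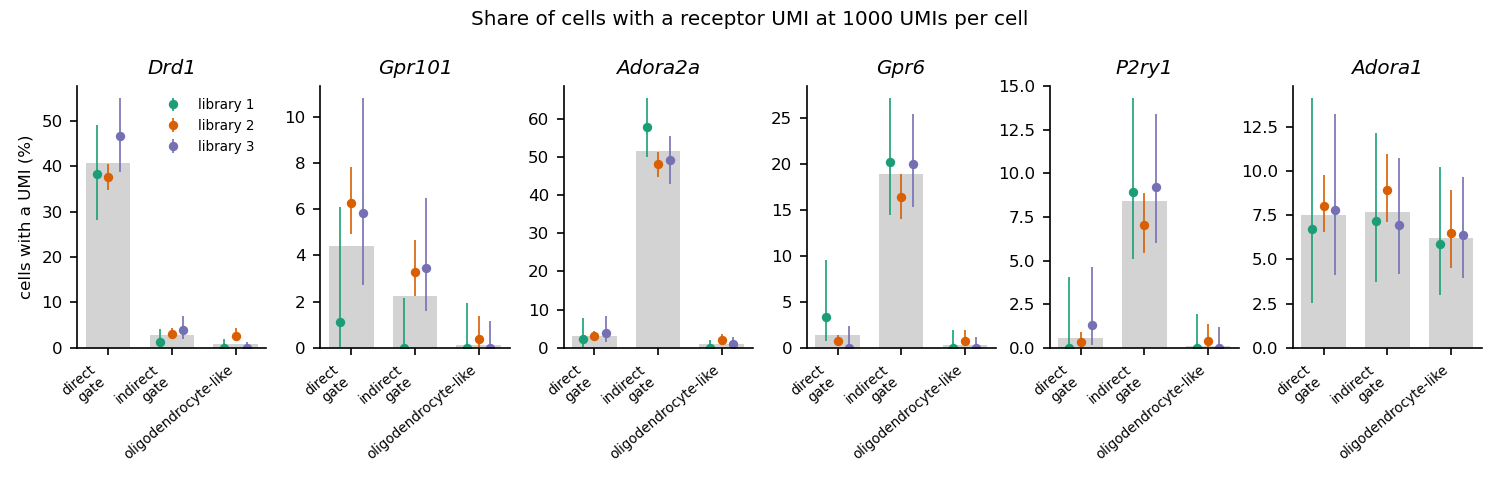
Share of cells with at least 1 UMI of each receptor (vertical axis, percent) after thinning each cell to 1000 UMIs, in both gates and in oligodendrocyte-like cells. Bars are means over libraries, points are libraries and lines are exact 95% binomial intervals. Drd1 stands out in the direct gate at 40.8% and Adora2a in the indirect gate at 51.7%, while Adora1 lies between 6.23% and 7.66% in all 3 classes.

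Pairs of receptors were counted in single cells. Among 3476 spiny neurons thinned to 1000 UMIs, 43 held both Drd1 and Adora2a, where 179.1 would be expected if the genes were independent, and by library there were 1, 39 and 3. Drd1 and P2ry1 met in 2 cells against 28.4 expected, and Drd1 and Gpr6 in 12 against 64.1. Adora2a and Gpr6 met in 129 cells against 56.9, Adora2a and P2ry1 in 56 against 25.2, and Gpr6 and P2ry1 in 23 against 9.03. Drd1 and Gpr101 met in 53 cells against 36.4, and Drd1 and Adora1 in 81 against 68.5. Adora1 met Adora2a in 66 cells against 60.7, but P2ry1 in 4 against 9.64, with 1, 2 and 1 by library against 1.42, 6.22 and 1.94. Cells are not replicates, so these counts are given as descriptions.

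Outside the gates, Drd1 was high in further neurons in every library, while Adora2a was raised there mainly in library 1. The Tshz1 cluster, neurons led by Tshz1, Tac2 and Foxp2 that were kept out of the gates, had 607.1, 462.8 and 471.5 CPM of Drd1, close to the direct gate. That cluster held peptide genes of both gates, with 3094, 3256 and 3051 CPM of Tac1 and 1351, 2750 and 4541 CPM of Penk. Its Adora2a level was 430.8, 80.5 and 47.2 CPM, and the high value of library 1 came from 22 UMIs in 8 cells. The ungated spiny neurons, with a median of 1074 UMIs per cell, had 658.6, 397.7 and 443.4 CPM of Drd1 and 294.3, 63.6 and 72.8 CPM of Adora2a. Their Adora2a mean of 143.6 CPM was 68.2 CPM without library 1. Of all Drd1 UMIs 53.8% lay in the direct gate, 17.6% in ungated spiny neurons and 13.1% in the Tshz1 cluster. Of all Adora2a UMIs, 79.5% lay in the indirect gate.

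Ordered by mean level, Drd1 ran from the direct gate (557.7 ± 80.1 CPM) through the Tshz1 cluster (513.8 ± 80.9), ungated spiny neurons (499.9 ± 139.4) and the 148 neurons high in both gates (418.1 ± 65.3), and these neighbours overlapped. The next class, T-cell-like cells at 64.1 ± 41.7 CPM from 12 UMIs, did not overlap them. Adora2a was led by the indirect gate at 859.2 ± 301.9 CPM, which did not overlap the next class. Gpr6 was likewise led by the indirect gate at 207.4 ± 38.5 CPM, with the both-high neurons next at 30.6 and 91.2 CPM in libraries 2 and 3. P2ry1 was led by the indirect gate at 94.4 ± 7.53 CPM, and fibroblast-like cells, at 119.4 CPM from 16 UMIs in library 2 and 0 in library 1, overlapped it. Endothelial-like cells held P2ry1 at 30.9, 53.4 and 13.5 CPM, above the direct gate in each library.

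**Figure D3:**
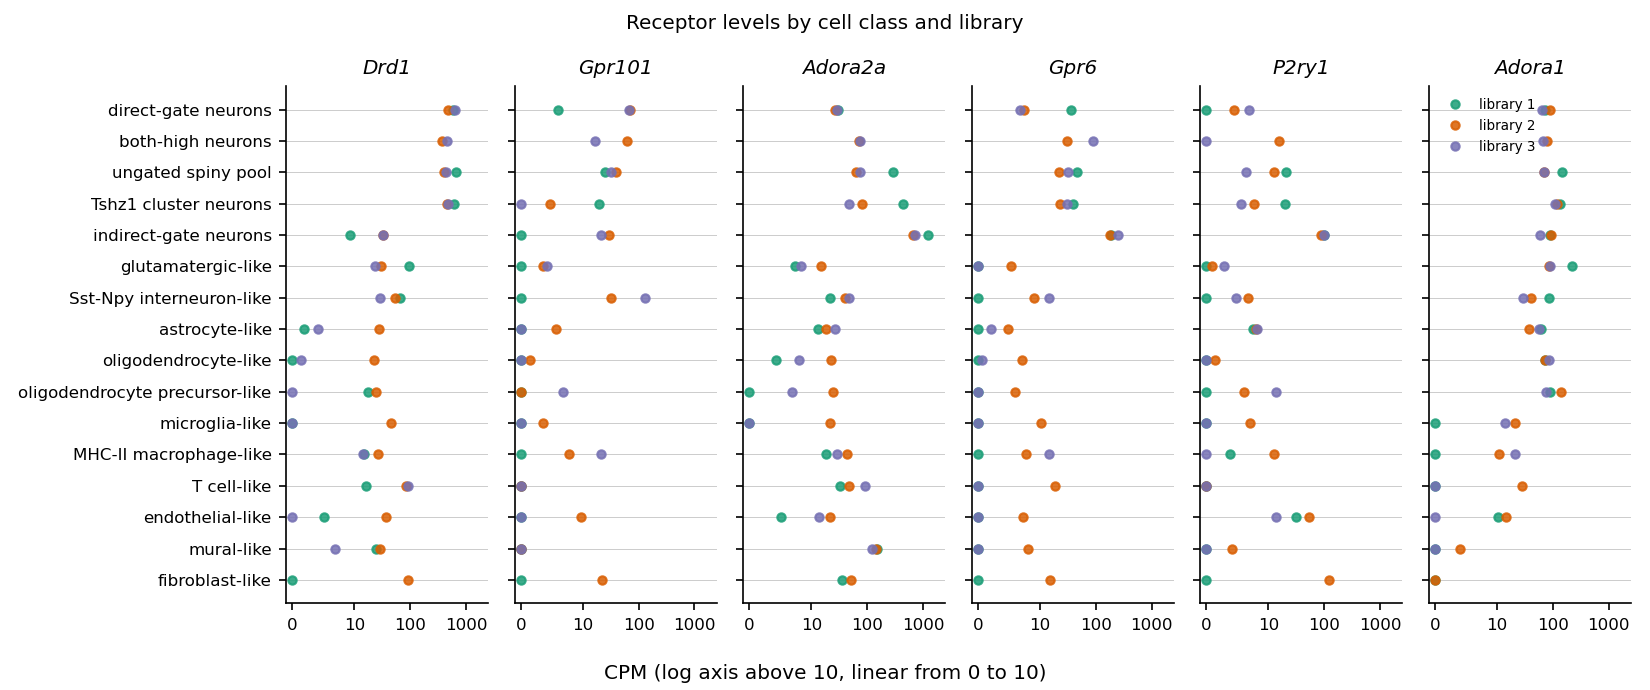
CPM of 6 receptors (horizontal axis, logarithmic above 10 and linear below) in 16 cell classes, with 1 point per library of at least 10 cells. Drd1 lies above 300 CPM in the direct gate, the both-high and ungated neurons and the Tshz1 cluster, and mural-like cells are the non-neuronal class with Adora2a above 100 CPM in all 3 libraries.

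Adora2a was also read in cells of the vessel wall. Mural-like cells, the pericytes and smooth muscle cells around vessels, had 147.2, 146.4 and 123.2 CPM from 6, 36 and 18 UMIs. These values lay above the direct gate and above astrocyte-like and endothelial-like cells in every library. A split of the mural-like cells, made after their values were seen, put 193.8, 185.4 and 193.9 CPM in cells with under 2 UMIs of Acta2, the smooth muscle actin, and 0, 103.1 and 0 CPM in the others. The latter held 12 UMIs, and the 0 of libraries 1 and 3 allows up to 305.8 and 56.3 CPM (3 counts).

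Adora1 was read in neurons and in glia. Glutamatergic-like neurons had 219.3, 85.2 and 88.3 CPM, the Tshz1 cluster 137.1, 120.7 and 111.0 CPM, and oligodendrocyte-like cells 74.1, 71.5 and 85.2 CPM. The Tshz1 cluster overlapped glutamatergic-like neurons, and oligodendrocyte-like cells lay under the Tshz1 cluster. The glutamatergic mean was 130.9 ± 76.5 CPM (86.8 without library 1), and in library 1, its highest, these neurons all came from 1 of the 2 glutamatergic-like clusters. Oligodendrocyte precursor-like cells averaged 100.5 ± 33.0 CPM and astrocyte-like cells 52.2 ± 12.9 CPM, while microglia-like, endothelial-like and mural-like cells were at 11.7, 8.29 and 1.36 CPM. Gpr101 was highest on average in Sst-Npy interneuron-like cells, at 0, 31.4 and 129.9 CPM, but the value of library 3 came from 27 UMIs in 4 of 33 cells, 1 of which held 18.

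Set against other cells, 5 receptors were higher in the sum of the 2 gates, though each was carried mainly by 1 gate. P2ry1 was at 0, 4.42 and 6.81 CPM in the direct gate and 7.46, 7.98 and 8.23 CPM in astrocyte-like cells. Drd1 in the indirect gate (9.34, 32.6 and 33.0 CPM) was above astrocyte-like cells (1.86, 27.1 and 4.11 CPM) in each library, though the ranges over libraries overlapped. Adora2a in the direct gate (29.7, 26.5 and 29.0 CPM) lay close to them (13.0, 18.3 and 26.7 CPM) but above in each library. In both gates together over astrocyte-like cells, 59.3% of 10140 genes were called by edgeR, with 28.4% of all genes tested higher and 31.0% lower in spiny neurons, and 5 of 6 receptors were higher. Drd1 differed by 3.89 on the log2 scale (adjusted p = 2.53e-04, edgeR), Adora2a by 3.95 (3.35e-05), Gpr6 by 4.64 (1.01e-04), Gpr101 by 3.2 (0.00223) and P2ry1 by 2.09 (5.61e-04). Adora1 differed by 0.02 with an adjusted p of 0.969 in edgeR and an approximate 95% interval from -0.55 to 0.58. The interval assumes a normal spread and is too narrow for so few libraries. Without library 2 the log2 fold change was 5.67 for Drd1 and 6.37 for Gpr6.

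Over glutamatergic-like neurons, 17.8% of 9717 genes were called by edgeR, 7.91% higher and 9.88% lower in spiny neurons, and again 5 of 6 receptors were higher. The log2 fold changes were 2.84 for Drd1, 5.08 for Adora2a, 5.19 for Gpr6, 4.96 for P2ry1 and 3.58 for Gpr101, with adjusted p from 3.88e-05 to 7.95e-04 in edgeR. The sizes depended on single libraries: without library 2 Adora2a was at 5.93 and Gpr6 at 9.66, a size set by the prior count since the glutamatergic-like neurons of libraries 1 and 3 held 0 Gpr6 UMIs, and without library 3 Gpr6 was at 4.28 and P2ry1 at 5.65. Glutamatergic-like neurons held at most 5.32 CPM of Gpr6 and 2.76 CPM of P2ry1 in any library. Adora1 was at -0.50 (SE 0.26, adjusted p = 0.228, edgeR), with an approximate 95% interval from -1.0 to 0.01, which is likewise too narrow.

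**Figure D4:**
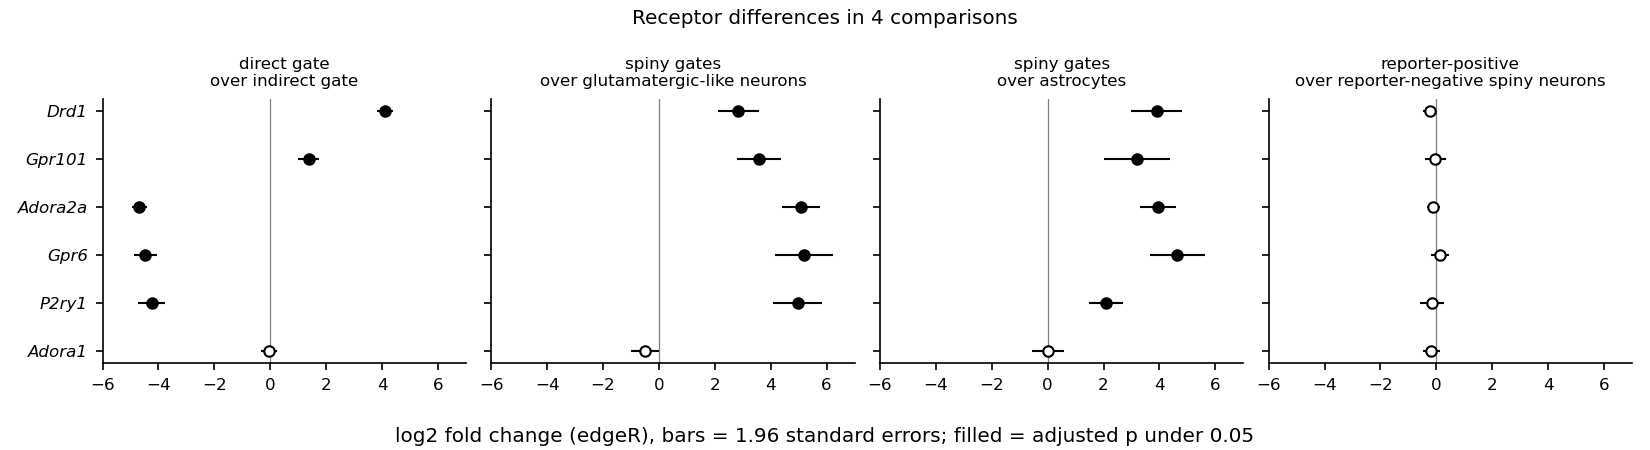
Log2 fold changes of 6 receptors (horizontal axis) in 4 comparisons, from edgeR, with bars for approximate 95% intervals and filled points for an adjusted p under 0.05. The bars assume a normal spread and are too narrow over glutamatergic-like neurons and astrocyte-like cells. Adora1 is open in all 4 panels, and all 6 receptors are open in the comparison by reporter.

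Cells with an mCherry UMI, the construct's reporter, were compared with cells without inside each gate, with library and gate as terms. No receptor passed: edgeR called 0 of 6 receptors and 12 (0.146%) of 8219 genes, 0.0608% higher and 0.0852% lower, and DESeq2 called 0 receptors. At an unadjusted p under 0.05 there was 1 receptor, Drd1, at -0.24 (SE 0.12, adjusted p = 0.609, edgeR). In the direct gate Drd1 had 404.4, 434.9 and 509.9 CPM in reporter-positive cells and 590.2, 484.5 and 656.6 CPM in reporter-negative cells. The positive value was the lower in 3 of 3 libraries, but the exact Poisson intervals overlapped in each. In the indirect gate Drd1 had 0, 16.1 and 44.5 CPM in positive and 9.79, 36.9 and 31.1 CPM in negative cells. There library 3 went the other way. Library 1 had 7 positive cells in the direct gate, under the 10 needed, so that sum did not enter the fit. The sum of its 117 negative cells did enter. In the direct gate of libraries 2 and 3 the median reporter-positive cell had 3402 and 3763 UMIs and the median negative cell 2446 and 3099. The part of this depth in the result was not tested. For Gpr6 the fold change was 0.13 (SE 0.16) and for Adora2a -0.10 (SE 0.12), and their intervals held 0.

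Receptor levels were also taken in neuron clusters made without the receptors, over all cells of a cluster, gated or not. Because clusters were made from other variable genes of these same cells, these values are descriptions. Cluster 6, indirect-spiny-like neurons led by Grik3 and Penk, had 1747.5, 866.3 and 967.3 CPM of Adora2a, and cluster 0, indirect-spiny-like neurons led by Penk, Calb1 and Pou3f1, had 876.0, 486.7 and 601.1. Cluster 6 was the higher in each library. Gpr6 did not share that order, with 265.2, 173.3 and 282.7 CPM in cluster 6 and 167.5, 168.8 and 289.0 CPM in cluster 0. Adora1 was 218.4, 118.5 and 93.0 CPM in cluster 6 and 68.7, 72.2 and 49.3 in cluster 0.

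Among clusters with Drd1, cluster 1, direct-spiny-like and led by Nts, Pdyn and Slc35d3, had 872.9, 591.7 and 790.0 CPM of Drd1. Cluster 2, with Isg15 and Ifit1 (both induced by interferon) at its head, had 294.4, 201.5 and 297.2 CPM. The values of cluster 1 lay above those of cluster 2 in every library. Cluster 4, unnamed and led by Dlk1 and Peg10, had 575.3, 331.5 and 406.7 CPM over all its cells and 356.3, 412.1 and 579.7 CPM in its 11, 185 and 25 direct-gate cells, so the order of its libraries differed between these sets. Cluster 11, unnamed and led by Cxcl14 and Tnnt1, held 235 of its 241 cells in library 2, where Drd1 was at 422.0 CPM. Gpr101 was at 1 UMI in the 161 direct-gate cells of that cluster (3.69 CPM, exact Poisson interval 0.09 to 20.6), against 83.1 CPM (69.9 to 98.1) in direct-gate cells of cluster 1 of the same library. Cluster 3, unnamed and led by Nfib and Trh, had 29.7, 85.5 and 51.5 CPM of Drd1 and 29.7, 28.5 and 21.5 CPM of Adora2a, with 3401 CPM of the summed spiny markers on average. In 2 libraries, 48 cells of cluster 3 were in the indirect gate, with 77.7 and 94.1 CPM of Drd1. Those cells held 0 UMIs of Adora2a, Gpr6 and P2ry1. Indirect-gate cells of the other clusters with enough cells averaged 12.5 to 31.9 CPM of Drd1. Cluster 5 was unnamed and led by Unc79 and Spata13, at a median of 1057 UMIs per cell. Over all its cells it held both Drd1 (471.9, 309.9 and 366.6 CPM) and Adora2a (943.7, 387.0 and 602.4 CPM). Of its 204, 411 and 183 cells, 11, 85 and 22 were in the direct gate, and 316 in all were in the indirect gate. The indirect-gate cells of this cluster averaged 1141 CPM of Adora2a and 26.5 CPM of Drd1. Its 107 direct-gate cells of libraries 2 and 3 averaged 707 CPM of Drd1 and 163 CPM of Adora2a. The 2 libraries lay far apart, at 470 and 944 CPM of Drd1 and at 56.7 and 269.6 CPM of Adora2a. The Adora2a values came from 15 UMIs in all.

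**Figure D5:**
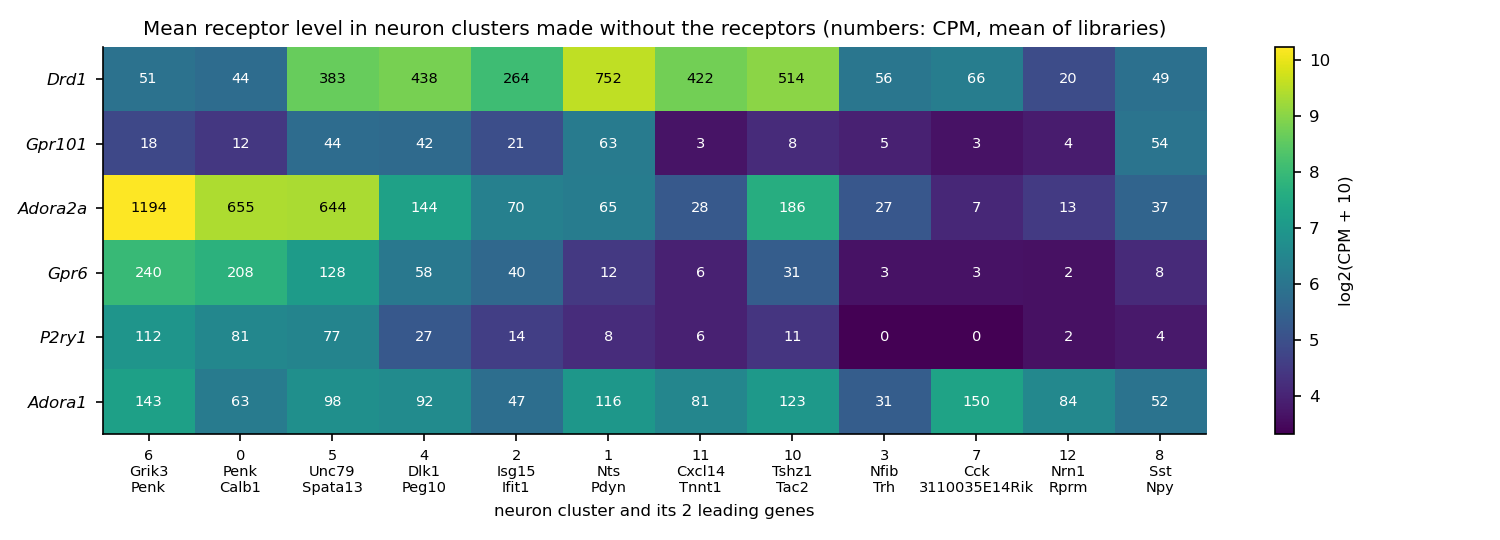
Mean CPM over libraries with at least 10 cells (printed in each box, colour on a log2 scale of CPM + 10) of 6 receptors in 12 neuron clusters, ordered from indirect to direct spiny clusters and then other neurons. Adora2a, Gpr6 and P2ry1 are high together in clusters 6, 0 and 5, and Gpr101 is low in cluster 11, a single-library value.

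The genes most like each receptor across 39 sums of class and library were named by Pearson r of log2(CPM + 10) among 11928 genes. The points share libraries, depth and the class makeup, so r is a description. Drd1 was most like Foxp2 (0.90), a transcription factor, Pdyn (0.90), a gene of the direct gate, and Slc35d3 (0.88). Adora2a was most like Gpr6 (0.84), Gucy1a3 (0.76), a subunit of the nitric oxide receptor, and Rarb (0.76), a retinoic acid receptor. Gpr6 was most like Penk (0.86), Adora2a (0.84) and Rasd2 (0.81), and P2ry1 was most like Gpr6 (0.71), Ptprm (0.69) and Penk (0.65). Penk is a gene of the indirect gate, and sums of both gates are among the points. Adora1 was most like Syt11 (0.94), Fam171b (0.90) and Ncam1 (0.89), the last a cell adhesion molecule. Gpr101 was most like Dlk1 (0.79), Klf5 (0.78) and Rnf207 (0.77). Between Drd1 and Adora2a r was 0.36.

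Around the receptors, 44 genes of dopamine and adenosine signalling were listed, and 35 were tested in the direct over indirect comparison. By edgeR 3 were higher in the direct gate, 10 were lower and 22 did not pass, with a median log2 fold change of -0.10. The count of 13 fell to 6 with DESeq2, 2 without the library block, 5 without library 2 and 4 without library 3. It fell to 1 when cells were gated by Isl1 and Sp9 alone. Over all 8786 genes tested, edgeR called 184 (2.09%) and DESeq2 called 59 in the same comparison. Calls over all genes in the other settings are not given here. Lower in the direct gate were Nt5e, the ectoenzyme that makes adenosine from AMP, Gnas, the stimulatory G protein subunit, and Adk, which clears adenosine by phosphorylation. Nt5e had 5.94, 4.42 and 3.41 CPM in the direct gate and 43.6, 31.1 and 30.5 in the indirect gate (log2 fold change -2.85, adjusted p = 4.17e-09, edgeR). Gnas had 101.0, 82.3 and 85.2 CPM against 526.3, 362.4 and 741.3 (-2.45, adjusted p = 1.28e-17, edgeR). Adk had 5.94, 26.8 and 13.6 CPM against 49.8, 103.7 and 51.3 (-1.97, adjusted p = 5.19e-11, edgeR). Each of these 3 genes had its gates apart in every library. Pde4b, which degrades cyclic AMP, was at -0.53. Higher in the direct gate were Rgs4, which shortens G protein signals, at 0.69, with 433.9, 673.4 and 696.6 CPM against 317.7, 408.9 and 409.1, and Gnai1, an inhibitory G protein subunit, at 0.62. The third was Slc29a1, a nucleoside transporter named after its values were seen, at 1.05 and higher in 2 of 3 libraries. Gnal and Adcy5, the G protein subunit and cyclase that act downstream of these receptors, had 688.5 ± 111.8 and 736.4 ± 138.4 CPM in the direct gate and 757.1 ± 82.1 and 834.1 ± 191.9 in the indirect gate and did not pass (adjusted p = 0.844 and 0.632, edgeR).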

How the data were processed

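Per the labels, the libraries were made with the 10x Genomics 3′ v2 kit from 3 samples of 1 group. Per the submitters' processing notes, Cell Ranger 3.0 and mm10 were used. The authors deposited 1 pooled matrix of raw UMI counts (28001 features, 11625 cells, software version 3.0.0 per the file headers). The annotation release and the cell calling are not given in the sources used here. Nothing ties a barcode suffix to a labelled sample, so the library number is a name.

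Cells passed with 300 genes or more and a mitochondrial share of 20% or less, and after Scrublet scoring (automatic calls: 54, 0 and 10 cells) the 44, 296 and 28 highest scores were removed, leaving 9923 cells. Cells were clustered with scanpy 1.11.5 (2000 variable genes, Leiden resolution 1) without the receptors, construct features and immediate early genes. Clusters were named "-like" from markers, and names are rebuilt here. Counts were summed per library and arm of at least 10 cells and tested with edgeR 4.0.16 (TMM, filterByExpr, robust prior, library as block, Benjamini-Hochberg over all genes, threshold 0.05), after tests on simulated data. DESeq2 1.42.0 and the other settings in the closing section were alternatives. The library block pairs sums that come from the same library. Each SE printed with an edgeR fold change was back-computed from the F statistic of its test, as the absolute log2 fold change over the root of F. Approximate 95% intervals were built from that SE. Exact 95% intervals and the limit of 3 counts cover counting error only.

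Members and gene lists were chosen with earlier results of these data known. Named are all listed receptors, of the signalling list up to 5 higher and 5 lower genes with the largest called change in the same direction in 3 of 3 libraries (Slc29a1, Gnal and Adcy5 fall outside it, and Gnal and Adcy5 were named after their values were seen), and the 3 most alike genes per receptor of at least 100 UMIs over sums of at least 50 cells. A gene that the rule names is not reported here.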

Additional observations from a re-analysis of the deposited data

How the results depend on the processing

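Of 404 recomputed log2 fold changes of the receptors, 389 had the same sign and the same side of the threshold, 4 (all Gpr101 between the gates, given above) no longer passed, and 11, none of them past the threshold, changed sign. The settings were DESeq2, no low-count filter, the default prior, no replicate block, other gates and cell filters, each library left out, and 2 chosen after seeing the data (the Tshz1 cluster in the gates, and no cluster mostly of library 2). The sizes of called changes moved more. Between the gates, named clusters gave 3.42 for Drd1, -3.85 for Adora2a, -3.59 for Gpr6 and -3.11 for P2ry1, and transcription factors only gave 3.37 for Drd1, -3.97 for Adora2a and -2.41 for P2ry1. Over astrocyte-like cells P2ry1 was at 1.47 with transcription factors only and Gpr101 at 3.95 with at most 10% mitochondrial UMIs, and over glutamatergic-like neurons Gpr6 was at 6.31 in DESeq2 and 4.48 with no removal of doublet scores. The values without a library stand beside those results. Adora1 came to 0.0089 between the gates with named clusters, and over astrocyte-like cells to -0.031 in cells of at least 1000 UMIs and to between -0.39 (without library 2) and 0.27 with a library left out. By reporter, Adora2a came to 0.0092 at 2 mCherry UMIs, Gpr6 to -0.21 with transcription factors only and P2ry1 to between -0.35 and 0.28 with a library left out. Gpr101 by reporter came to 0.098 with no replicate block, 0.019 in a looser gate, 0.050 with peptide genes only, 0.021 with the Tshz1 cluster in the gates and between -0.039 and 0.045 with a library left out.

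The signalling list gave 6 genes with DESeq2, 2 with no replicate block, 1 with transcription factors only, and 4 to 13 with a library left out. Without the replicate block no receptor call other than that of Gpr101 changed (log2 fold change 1.43). Over all genes, 184 were called between the gates by edgeR and 59 by DESeq2, and 12 and 0 by reporter. The share difference of Adora1 (direct minus indirect, in points) was 0.996 in a looser gate, 0.475 with transcription factors only, 0.343 at 500 UMIs, 2.38 not thinned, and -0.63 to 0.23 with a library left out. That of Drd2 was 0.0 with transcription factors only and 2.96 at 2000 UMIs, and that of Drd3 was 0.028 not thinned. The 2.96 points of Drd2 rested on a share of 9.09% in the direct gate of library 1, against 0.246% and 0% in libraries 2 and 3. Of the CPM values by class, 649 moved by no more than the SD between libraries and 15 by more. Leaving out a library cannot move a mean by more than that SD, so those values could not count as moved. All 15 came from other cell filters (no removal of doublet scores, or only cells of at least 1000 UMIs). Without library 2 the counts of Gpr101 were too low for the fit between the gates. Low counts limit Drd2 and Drd3, with 15 and 2 UMIs in kept cells, and Gpr101 in library 1, with 9.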
